A study of Mus musculus with 4 samples.

Results

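Cytosolic ribosomal protein genes encode the protein parts of the ribosome that translates nuclear messages. The large subunit holds the Rpl proteins and forms peptide bonds, and the small subunit holds the Rps proteins and reads the message. The members were chosen by symbol from the array's probe annotation. The rule uses no measured value and leaves out some symbols by name, but earlier results of these data were known when it was set. They are the 63 genes, of 9285 measured in all, with an Rpl or Rps symbol kept by this rule and a probe annotated with 1 gene. Of these, 39 encode large subunit proteins and 24 small subunit proteins. They were read by 98 probes: 51 genes had 1 probe, 7 had 2, 4 had 3 and Rpl13a had 21. A further 3 probes that name a ribosomal protein gene together with another gene were left out.

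All groups were livers of male mice of B6/FVB background, 7 to 8 weeks old, on a diet with sufficient selenium. Each mutant was compared on 2-colour arrays with wild-type littermates, called Trsp in the labels, after the gene for the selenocysteine tRNA. In DTrsp mice the liver was without Trsp. The A34 transgene, present in 2 copies, encodes the tRNA with T34 changed to A34. The G37 transgene, with A37 changed to G37, was present in 2 copies in G37L mice and in 16 copies in G37H mice. How Trsp was removed, the number of founder lines, and whether the transgenic livers kept their own Trsp were points not given in the sources used here. Trsp had 0 named probes, which left no check of its loss in these data.

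Each comparison is 1 deposited log ratio per probe, averaged per the labels over biological replicates, of which there were 3 for G37H and 4 for each of the other lines. There is no spread between animals in these values, so no SD across animals and no p-value can be given, and every difference below is a description. The values were read on the log2 scale with the mutant, labelled with Cy5, above the wild type, labelled with Cy3. The dye labels make this direction likely, and with the ratio turned every sign below would turn. No pair of columns correlated below 0 over all probes, the lowest coefficient being 0.03 between DTrsp and A34. The base of the logarithm and the array normalization, both not given in the sources used here, limit how far sizes can be read. Over all genes the column medians were 0.16 in DTrsp, 0.07 in A34, with -0.11 in G37L and -0.11 in G37H, so member values are also given relative to these. Defining hepatocyte genes were on the array, and the 10 measured hepatocyte markers had medians of 0.60, 0.36, 0.57 and 0.65 in DTrsp, A34, G37L and G37H. Signal levels were not used here, so presence above background could not be checked for any marker.

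Ribosomal proteins are made in near-equal amounts, and their messages are among the most abundant in liver. Most of these messages begin with a C followed by a run of C and T, the terminal oligopyrimidine (TOP) tract, through which the TORC1 kinase controls their translation. Their promoters were examined because most members lay above the median of all genes, 56 of 63 in both DTrsp and G37L, 43 in A34 and 53 in G37H. RefSeq promoter sequences of build GRCm38.p6 were found for 52 of the 63 genes, 61 promoters in all. Windows of 20 bases around the annotated start, 10 before and 10 after, are shown for members that the results below turn on and for Rpl38, whose tract begins at the annotated start. Capitals mark the part within the window of a C followed by 4 or more C or T.
Rps6 (chr4:86857358-86857377, minus strand): gaagtcgggCCTCTTTTTCg
Rps15a (chr7:118116138-118116157, minus strand): tttctgccatCTTCCCTCgc
Rpl38 (chr11:114668570-114668589, plus strand): aagcctcgttCTTTCCCCgt
Rps7 (chr12:28635944-28635963, minus strand): cggtttccacccacctaCTT
Rpl7a (chr2:26910797-26910816, plus strand): CTCTTCTTTCTTTCTCCagc
Rpl35 (chr2:39005122-39005141, minus strand): ccgCCCTTTCCTCTTTCTCT
Rpl13a (chr7:45128736-45128755, minus strand): cctgcgacaagaCCTCCTCC
Rplp0 (chr5:115559457-115559476, plus strand): cgggtttcgaggaccgcctg
Rpl4 (chr9:64173377-64173396, plus strand): tttcctgtgggagcagccgg
Rpl9 (chr5:65391422-65391441, minus strand): gggccctgacggattacaag
The first 7 hold such a tract near the start and the last 3 hold none, where the annotated start may lie some bases from the one in use.

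A tract starting within these 20 bases was found in 31 of 61 member promoters (50.8%), against 29.7% of all 32851 promoters and 30.7% of the 9695 promoters of measured genes. It began exactly at the annotated start in 2 member promoters, those of Rpl38 and Rps15a. Within the whole 300 bases, from 250 before to 50 after the start, CCGGAA, the core bound by Ets factors, was found on either strand in 49.2% of member promoters, 14.9% of all promoters and 25.8% of promoters of measured genes. AAGATGGC, which holds the core bound by YY1, was found in 13.1%, 2.75% and 4.34%, and TATAAA in 11.5%, 13.6% and 8.32%. GGGCGG, the core bound by Sp1, was found in 60.7%, 35.7% and 59.5%, so it was about as frequent in members as in measured genes. The motifs were searched one by one, and matches may overlap. These are matches of letters, and levels were compared only for the tract. In DTrsp, the 30 genes with a tract had a median log2 ratio of 0.54 and the 22 with a promoter and no tract one of 0.44. In A34 these medians were 0.20 and 0.19, in G37L 0.35 and 0.35, and in G37H 0.25 and 0.12.

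Ribosomal protein genes stood above the median of all genes in each of the 4 lines. In DTrsp liver their median log2 ratio was 0.51, a 1.43-fold higher level, and 59 of 63 genes were above 0, against 64% of all genes. In G37L the median was 0.33, with 55 genes above 0 against 39.4% of all genes. In A34 it was 0.20, with 51 above 0 against 59.1%, and in G37H it was 0.17, with 49 above 0 against 38.4%. Relative to the column medians the member medians were 0.35 in DTrsp, 0.13 in A34, with 0.45 in G37L and 0.28 in G37H. DTrsp therefore had the highest member median as deposited and G37L the highest relative to all genes. Transcript level per cell and number of cells cannot be told apart in whole liver. The labels place every mutant in Cy5 and every wild type in Cy3, and dye swaps are not given. Dye and genotype therefore cannot be told apart either.

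**Figure D1:**
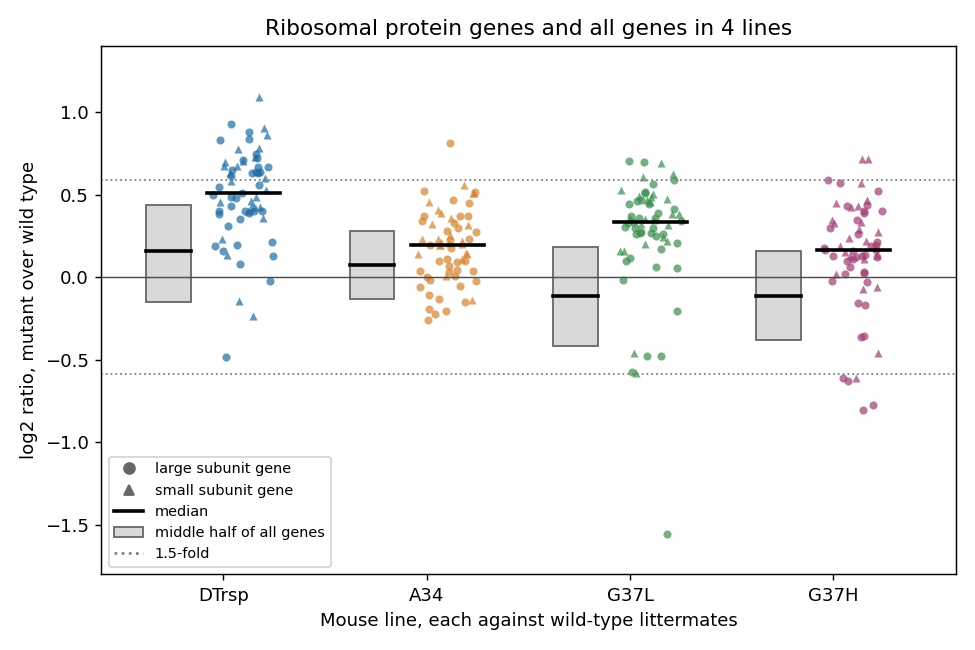
Log2 ratio of mutant over wild type (vertical axis) of the 63 ribosomal protein genes in the 4 lines (horizontal axis), circles for large and triangles for small subunit genes, with black lines at the medians. Grey boxes are the interquartile range of all 9285 genes and dotted lines mark 1.5-fold; the member medians of 0.51, 0.20, 0.33 and 0.17 lie above the medians of all genes, and 1 gene in G37L, Rplp0, lies apart at -1.56.

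In DTrsp, 27 members were at least 1.5-fold higher than wild type (42.9%, background 15.6%, the percentage of all 9285 genes that passed the same threshold) and 0 were at least 1.5-fold lower (background 6.96%). At 2-fold, 1 was higher (background 3.27%) and 0 lower (background 1.62%). Relative to the column median, 10 were at least 1.5-fold higher (15.9%, background 8.52%) and 1 lower (background 11.6%). The gene farthest above wild type was Rps7, a small subunit protein that also binds the p53 regulator Mdm2. It was at 1.09 in DTrsp, 0.14 in A34, with 0.32 in G37L and 0.29 in G37H, all from 1 probe. Its value was thus highest in DTrsp, where it ranked 225 of 9285 genes from the top. The large subunit protein Rpl9 was at 0.93, 0.37, 0.37 and 0.17 in the same order of lines, ranking 377 in DTrsp. Rps12, of the small subunit, was at 0.90, 0.21, 0.53 and 0.43. Rpl26, which lies by the exit of the peptide tunnel, was at 0.88, 0.34, 0.27 and 0.17. Rps18, in the head of the small subunit, was at 0.86, 0.19, 0.35 and 0.34. These 5 genes were named for their place in DTrsp, so their lower values in the other lines are a description.

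At the low end in DTrsp, 4 members were below 0. Rpl7l1, a relative of Rpl7 found in precursors of the large subunit, was the lowest at -0.48, with -0.20 in A34, with -0.02 in G37L and -0.36 in G37H. Its 2 probes read -0.70 and -0.27 in DTrsp, both below 0. Rps13, a small subunit protein, was at -0.24, 0.14, 0.16 and 0.19. That value joins probes at -0.72 and 0.25 in DTrsp, so its place there depends on 1 probe. Rps15a, whose tract is shown above, was at -0.15, 0.11, -0.46 and -0.61, near or below 0 in 3 lines. Rpl7a, of the large subunit, was at -0.02 in DTrsp but 0.81 in A34, with 0.41 in G37L and 0.16 in G37H. Rpl15, a large subunit core protein, was the fifth lowest in DTrsp at 0.08, and was at 0.52, 0.39 and 0.34 in the other lines.

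In A34 the members lay close to wild type. One gene, Rpl7a, was at least 1.5-fold higher, which makes 1 of 63 (1.59%, background 7.6%), and 0 were lower (background 2.65%). At 2-fold the counts were 0 higher (background 1.4%) and 0 lower (background 0.452%). After centring on the column median the counts were again 1 (background 5.5%) and 0 (background 3.61%). The next highest genes in A34 were Rps10 at 0.56, Rpl15 at 0.52, Rpl29 at 0.52 and Rps29 at 0.51. Rps10 lies in the head of the small subunit, and Rps29 is a small zinc-binding protein beside it. The lowest were Rpl27 at -0.26, the tunnel exit protein Rpl31 at -0.22, Rplp0 at -0.20, Rpl7l1 at -0.20 and Rpl23 at -0.15. The Rpl23 value joins 3 probes, at -0.81, 0.12 and 0.23. The whole range of the members in A34, from -0.26 to 0.81, was the narrowest of the 4 lines. The spread over all genes was also smallest in A34, with an SD of 0.36 against 0.50, 0.54 and 0.50 in DTrsp, G37L and G37H. Scaled to the spread of DTrsp, the A34 member median was 0.28 and 10 members were at least 1.5-fold higher (no background computed). The narrow range is therefore not particular to the members.

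In G37L, 6 members were at least 1.5-fold higher (9.52%, background 7.45%) and 1 at least 1.5-fold lower (1.59%, background 15.3%). At 2-fold, 0 were higher (background 2.51%) and 1 lower (background 3.96%). Relative to the column median, 13 were higher (20.6%, background 10.7%) and 1 lower (background 10.9%), so the share of higher members stood near the background as deposited and above it after centring. The 5 highest were Rpl34 at 0.70, Rpl22l1 at 0.70, Rps16 at 0.69, Rps29 at 0.63 and Rps21 at 0.61. Rpl41, the shortest of the ribosomal proteins, followed at 0.59. Rpl41 was also at 0.75 in DTrsp, 0.47 in A34 and 0.57 in G37H. Rps29 was at 0.78 in DTrsp, 0.51 in A34 and 0.71 in G37H, and Rps21 at 0.71, 0.40 and 0.57. These small proteins were therefore above wild type in each line.

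Rplp0 was the lowest member in G37L. It encodes the stalk base protein that carries the acidic proteins and helps to recruit translation factors, and it is often used as a reference gene. It was at 0.55 in DTrsp, -0.20 in A34, with -1.56 in G37L and -0.78 in G37H, all from 1 probe. In G37L this is a 2.94-fold lower ratio, and the other measured stalk gene, Rplp1, was at 0.72, 0.07, 0.21 and 0.06. The stalk genes thus lay apart in both G37 lines and near each other in DTrsp.

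The next lowest members in G37L belonged to both subunits. Rpl29, a small basic large subunit protein, was at 0.42 in DTrsp and 0.52 in A34 but -0.58 in G37L and -0.80 in G37H. It was read by 1 probe, whose G37H value was, by its decimals, an average over fewer arrays than labelled. Rps19, the small subunit protein most often mutated in Diamond-Blackfan anaemia, was at 0.46, -0.14, -0.58 and -0.46. Rpl22, an RNA-binding protein on the outside of the large subunit, was at 0.66, -0.02, -0.48 and -0.61. Its paralogue Rpl22l1 was at 0.83, 0.10, 0.70 and 0.39, above Rpl22 in every line and most so in G37L. Rpl4, which lines the peptide tunnel, was at 0.19, -0.13, -0.48 and -0.63. Its 2 probes read -0.89 and -0.06 in G37L and -0.89 and -0.37 in G37H, so they shared a sign but not a size. These values are set side by side only, any sharing of wild-type animals between arrays being not given in the sources used here.

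In G37H, 3 members were at least 1.5-fold higher (4.76%, background 7.3%) and 5 at least 1.5-fold lower (7.94%, background 13.1%). At 2-fold the counts were 0 higher (background 2.78%) and 0 lower (background 3.1%). As deposited, 37.5% of the members past 1.5-fold were higher. Centring on the column median gave a partly different set, with 6 higher (background 9.92%) and 2 lower (background 8.63%). Of that set 75% were higher. The balance of directions is therefore not settled in G37H. The highest genes were Rps27l at 0.72, Rps29 at 0.71, Rpl35 at 0.59, Rps21 at 0.57 and Rpl41 at 0.57. Rps27l is the paralogue of Rps27 that p53 induces, and it was at 0.63 in DTrsp, 0.36 in A34 and 0.36 in G37L. Rps27 itself was at 0.53, 0.51, 0.48 and 0.47 in DTrsp, A34, G37L and G37H, nearly the same as deposited, but at 0.37, 0.44, 0.59 and 0.58 relative to the column medians. Rpl35, at the tunnel exit, was at 0.13, 0.27, 0.46 and 0.59, lowest in DTrsp. The 5 lowest were Rpl29, Rplp0, Rpl4, Rpl22 and Rps15a, whose values are given above.

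**Figure D2:**
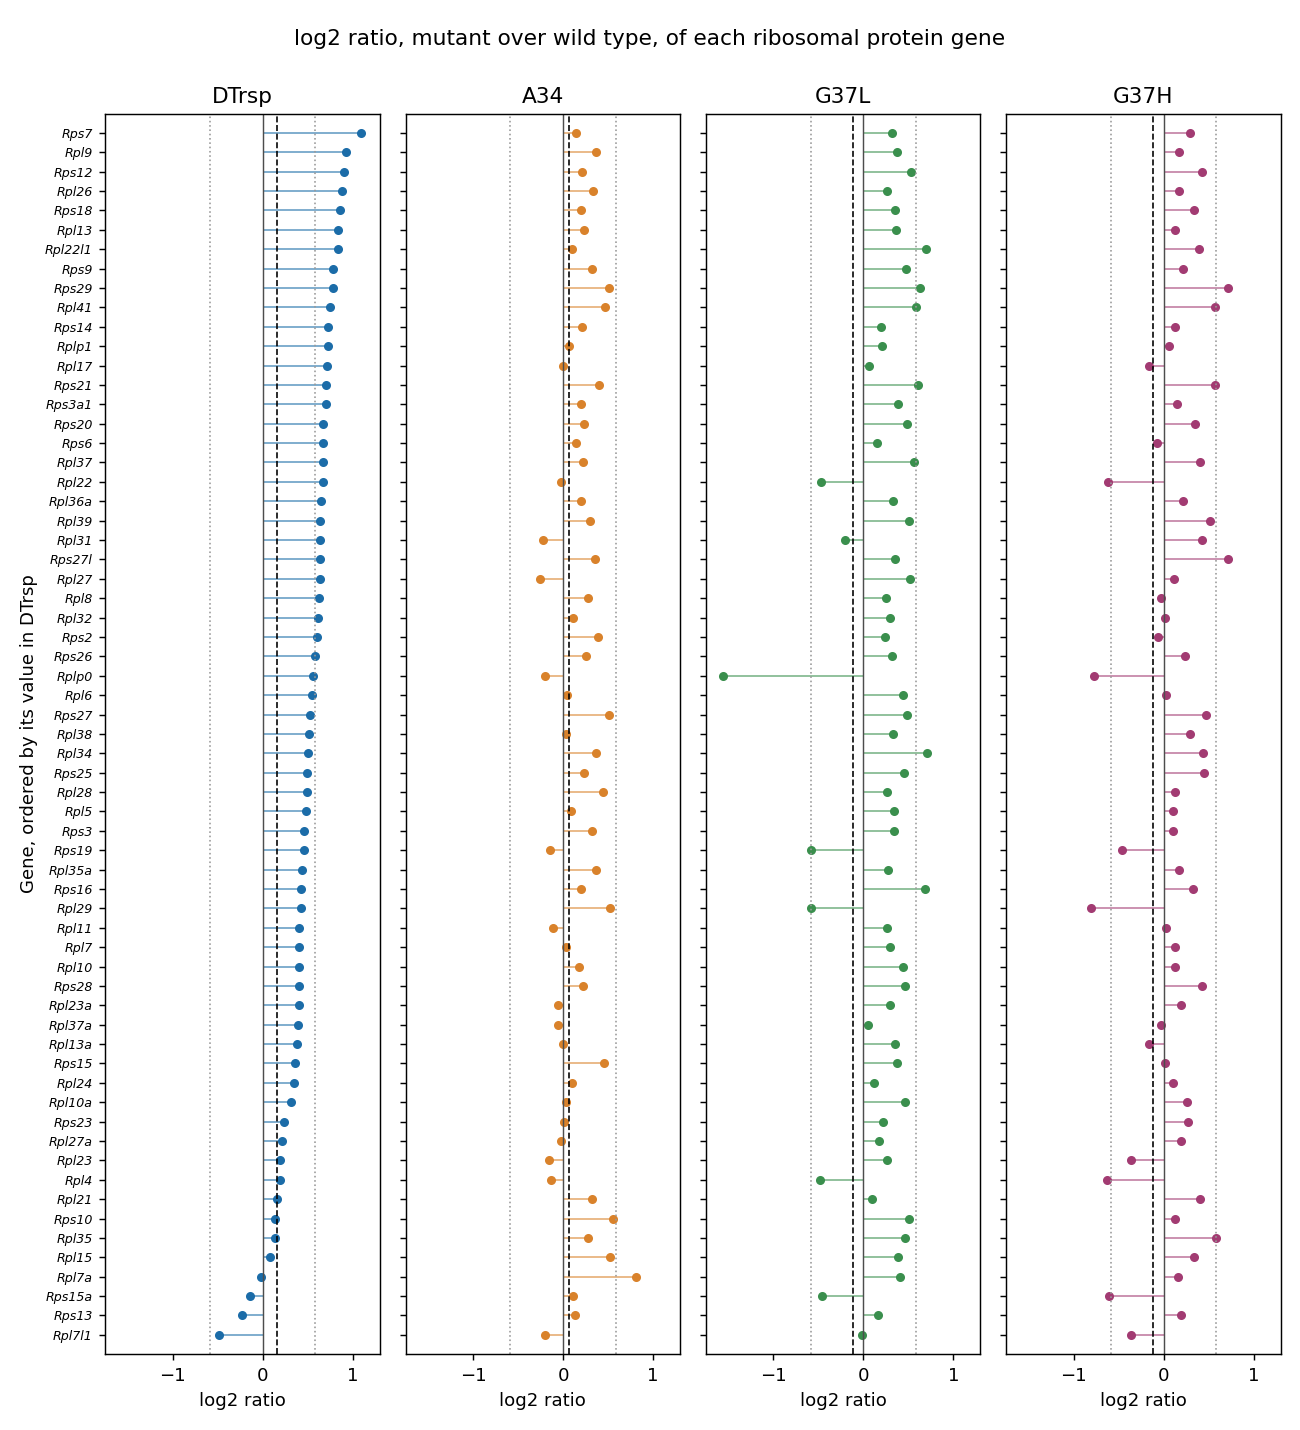
Log2 ratio (horizontal axis) of each of the 63 ribosomal protein genes (vertical axis, ordered by DTrsp) in 4 panels, 1 per line; dashed lines are the median of all genes and dotted lines 1.5-fold. Nearly all points in DTrsp lie to the right of 0, and Rplp0, Rpl29, Rpl22, Rpl4, Rps19 and Rps15a lie to the left of it in both G37 panels.

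Rpl13a shows how far probes of 1 gene vary in these averages. It encodes a large subunit protein that is not needed for translation in general and can silence inflammatory messages. Its 21 probes ran from -0.03 to 1.09 around a median of 0.37 in DTrsp, from -0.35 to 0.27 around 0.04 in A34, from -0.08 to 0.73 around 0.38 in G37L and from -0.52 to 0.39 around -0.17 in G37H. The SD over these probes was 0.29, 0.17, 0.20 and 0.24 in the 4 lines. The SD over the 51 members with 1 probe was 0.25, 0.22, 0.40 and 0.34. In DTrsp different genes were therefore no more spread than probes of this 1 gene, and 50 of the 51 values fell within the range of its probes. In G37L 45 did, with 6 below and 0 above, and in G37H 33 did, with 4 below and 14 above. In A34 33 did, with 0 below and 18 above. The sequences of the 21 probes were not used here.

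Among the other 11 members with 2 or 3 probes, the median distance between the highest and lowest probe was 0.43 in DTrsp, 0.32 in A34, with 0.35 in G37L and 0.51 in G37H. The farthest apart in DTrsp were those of Rpl21, at -0.37 and 0.69, then those of Rps13, given above, and of Rps3, at 0.03 and 0.89. The closest in DTrsp were those of Rpl4, at 0.13 and 0.25, and the closest in G37H those of Rplp1, both at 0.06. The 3 probes of Rps9, a small subunit protein of the decoding region, read 0.52, 0.78 and 1.05 in DTrsp, all above 0. In DTrsp, a difference of 0.43 or less between 2 members is thus within what probes of 1 gene commonly show. Many ribosomal protein genes have processed pseudogenes of nearly the same sequence, so a probe may also read such copies.

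**Figure D3:**
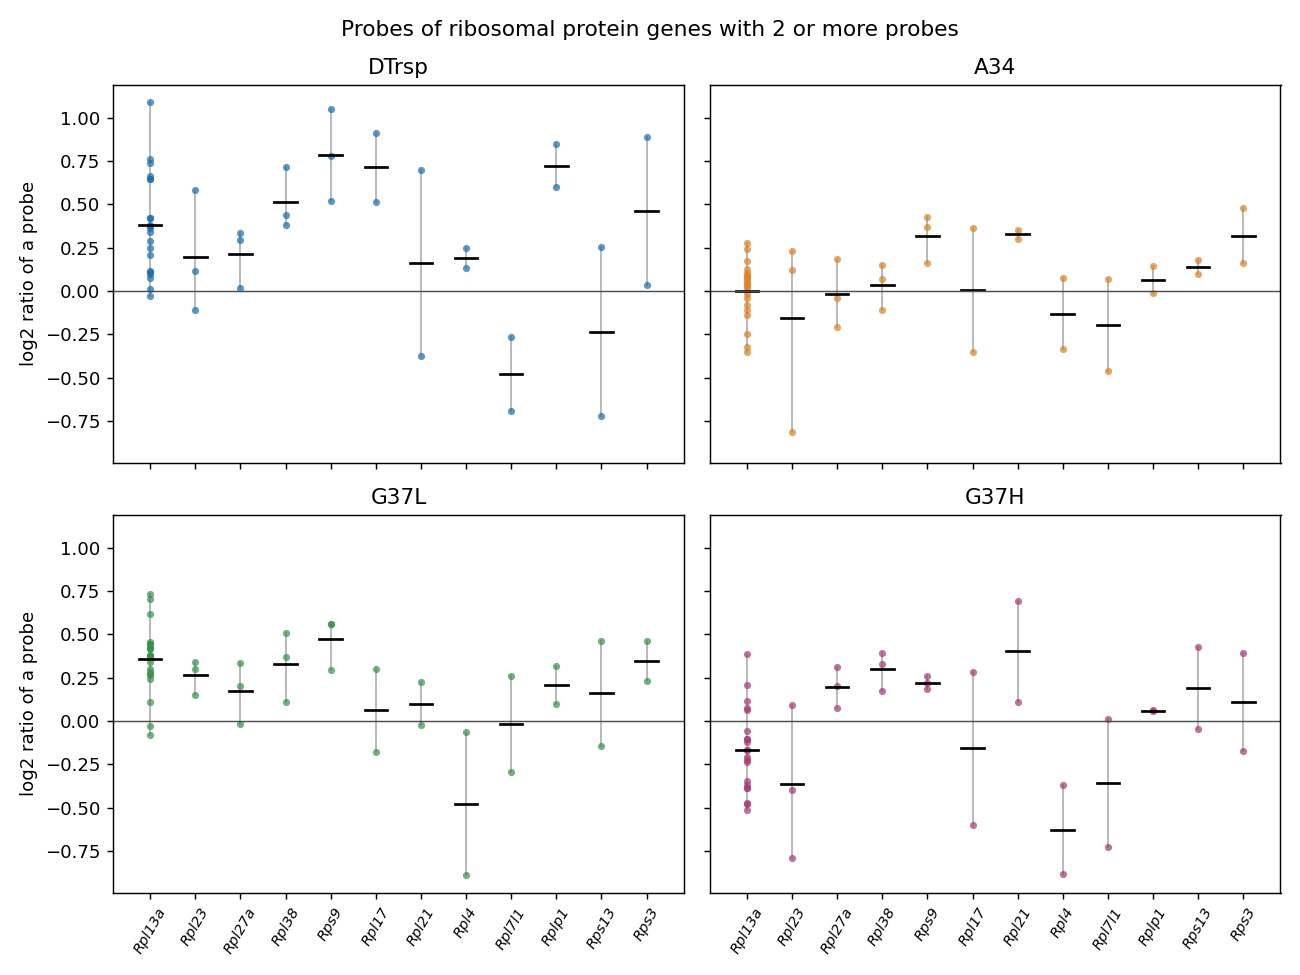
Log2 ratio of each probe (vertical axis, points) of the 12 ribosomal protein genes with 2 or more probes (horizontal axis), in 4 panels, 1 per line, with black bars at the mean that stands for the gene. The 21 probes of Rpl13a span -0.03 to 1.09 in DTrsp, and the probes of Rpl21 and Rps13 lie on both sides of 0 there.

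By subunit, small subunit genes had slightly higher medians than large subunit genes in each line. The 24 small subunit genes had medians of 0.59 in DTrsp, 0.22 in A34, with 0.37 in G37L and 0.25 in G37H. The 39 large subunit genes had medians of 0.49, 0.10, 0.30 and 0.13. These differences were not tested. At least 1.5-fold higher in DTrsp were 12 of the 24 small and 15 of the 39 large subunit genes (background 15.6%). Of the 5 members at least 1.5-fold lower in G37H (background 13.1%), 4 were of the large subunit, which holds 39 of the 63 members. The 8 measured genes listed for the mRNA path of the small subunit had medians of 0.52, 0.24, 0.33 and 0.19. They were Rps2, Rps3, Rps15, Rps23, Rps12, Rps26, Rps28 and Rps14. The 10 genes around the peptide tunnel and its exit had medians of 0.57, 0.02, 0.19 and 0.18. Rpl5 and Rpl11, which carry the small ribosomal RNA of the large subunit and bind Mdm2, stood near the members as a whole, Rpl5 at 0.48, 0.09, 0.34 and 0.10 and Rpl11 at 0.40, -0.11, 0.26 and 0.03. The 12 measured genes mutated in Diamond-Blackfan anaemia had medians of 0.47, 0.30, 0.33 and 0.20. Rps6, the substrate of the S6 kinases whose TOP tract is shown above, was at 0.67, 0.15, 0.16 and -0.07.

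Compared line by line, 53 of 63 members (84.1%) were higher in DTrsp than in A34, against 57.8% of all genes. Subtracting A34 from DTrsp gene by gene gave a member median of 0.35 against 0.11 over all genes, with 12 members at least 1.5-fold higher (background 15.3%) and 1 lower (background 12.8%). Rps7 had the highest difference at 0.95 and Rpl7a the lowest. For DTrsp minus G37H the member median was 0.35 against 0.29 over all genes, with 16 members at least 1.5-fold higher (background 27.8%) and 0 lower (background 9.35%). For DTrsp minus G37L it was 0.16 against 0.28 over all genes, with 9 higher (background 28.1%) and 0 lower (background 9.27%). It turned to -0.11 after centring both columns. For A34 minus G37L the member median was -0.14 against 0.20 over all genes, with 2 higher (background 22.1%) and 2 lower (background 7.26%). For G37H minus G37L, the same mutation in 16 copies against 2, it was -0.14 against -0.01 over all genes, and 11 of 63 members (17.5%) were higher in G37H, against 49.1% of all genes. There, 2 members were at least 1.5-fold higher (background 11.6%), with Rplp0 the farthest at 0.78, and 1 was lower (background 9.79%), Rpl23.

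The rest of the translation apparatus did not share the level of the ribosomal proteins in every line. Other genes with TOP messages, 22 measured, had medians of 0.44 in DTrsp, 0.12 in A34, with 0.12 in G37L and -0.01 in G37H. In DTrsp 8 of the 22 were at least 1.5-fold higher (background 15.6%) and 1 lower (background 6.96%). The highest were Eif3f at 0.93 and Eif3h at 0.75, subunits of initiation factor eIF3, and the lower one was Eif4b at -0.68. The 13 elongation and release factor genes had medians of 0.36, 0.30, 0.29 and 0.12. Among them Eef2, the factor that moves the ribosome along the message, was at 0.78 in A34, and its kinase Eef2k was at -0.99 in DTrsp, 0.78 in A34 and -0.61 in G37H. The 34 initiation factor genes had medians of 0.26, 0.14, 0.18 and -0.10. The poly(A)-binding protein gene Pabpc1 was the highest of them in A34 at 1.03, and the guanine exchange factor subunits Eif2b2 and Eif2b3 the lowest in G37H at -0.85 and -0.79.

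Genes that build ribosomes had lower medians than the ribosomal proteins in each line. The 63 assembly and nucleolar factor genes had medians of 0.24 in DTrsp, 0.00 in A34, with -0.16 in G37L and -0.08 in G37H. In G37L 0 of them were at least 1.5-fold higher and 12 lower (background 15.3%), with nucleolin, Ncl, at -1.15 and Pwp2 at -0.98. In DTrsp 10 were higher (15.9%, background 15.6%) and 2 lower (background 6.96%), with the box C/D ribonucleoprotein gene Nop58 at 1.21. The 18 genes of RNA polymerases I and III had medians of -0.17, -0.04, -0.18 and -0.11. The largest subunit of polymerase III, Polr3a, which makes tRNA and the small ribosomal RNA, was at -0.87 in DTrsp, -1.70 in G37L and -0.86 in G37H. Among 18 TORC1 and Myc regulators, with medians of 0.28, 0.09, -0.21 and -0.12, Myc was at 1.56 in DTrsp, -0.68 in A34, with 0.99 in G37L and 2.14 in G37H. Myc was highest in G37H and lowest in A34.

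Mitochondrial ribosomal protein genes, 72 measured, had medians of 0.28 in DTrsp, 0.05 in A34, with 0.02 in G37L and -0.05 in G37H. They encode a separate ribosome, and their medians were below those of the cytosolic genes in every line. The 17 cytosolic aminoacyl-tRNA synthetase genes had medians of 0.27, 0.01, 0.06 and -0.31, with Lars at 1.44 in DTrsp and Rars at -1.07 in G37H. Oxidative phosphorylation and the proteasome are other large complexes of housekeeping genes. The 75 oxidative phosphorylation genes had medians of 0.45, 0.15, 0.07 and 0.09, and 27 of them were at least 1.5-fold higher in DTrsp (36%, background 15.6%), against 42.9% of the ribosomal protein genes. The 35 proteasome genes had medians of 0.48, 0.12, 0.25 and -0.07. In DTrsp the ribosomal protein median was therefore near those of both other complexes. Relative to the column medians, oxidative phosphorylation genes were at 0.29, 0.08, 0.18 and 0.21 and proteasome genes at 0.32, 0.05, 0.36 and 0.04. Both lists, like the ribosomal proteins, thus lay above the median of all genes in each line. The hepatocyte markers, at 0.60, 0.36, 0.57 and 0.65 as deposited, lay above the ribosomal proteins in each line. Centred on oxidative phosphorylation genes, an alternative chosen after seeing the data, the ribosomal protein medians were 0.063 in DTrsp, 0.050 in A34, with 0.27 in G37L and 0.072 in G37H. The counts past 1.5-fold in DTrsp were then 1 higher and 3 lower, with no background computed for that centring.

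**Figure D4:**
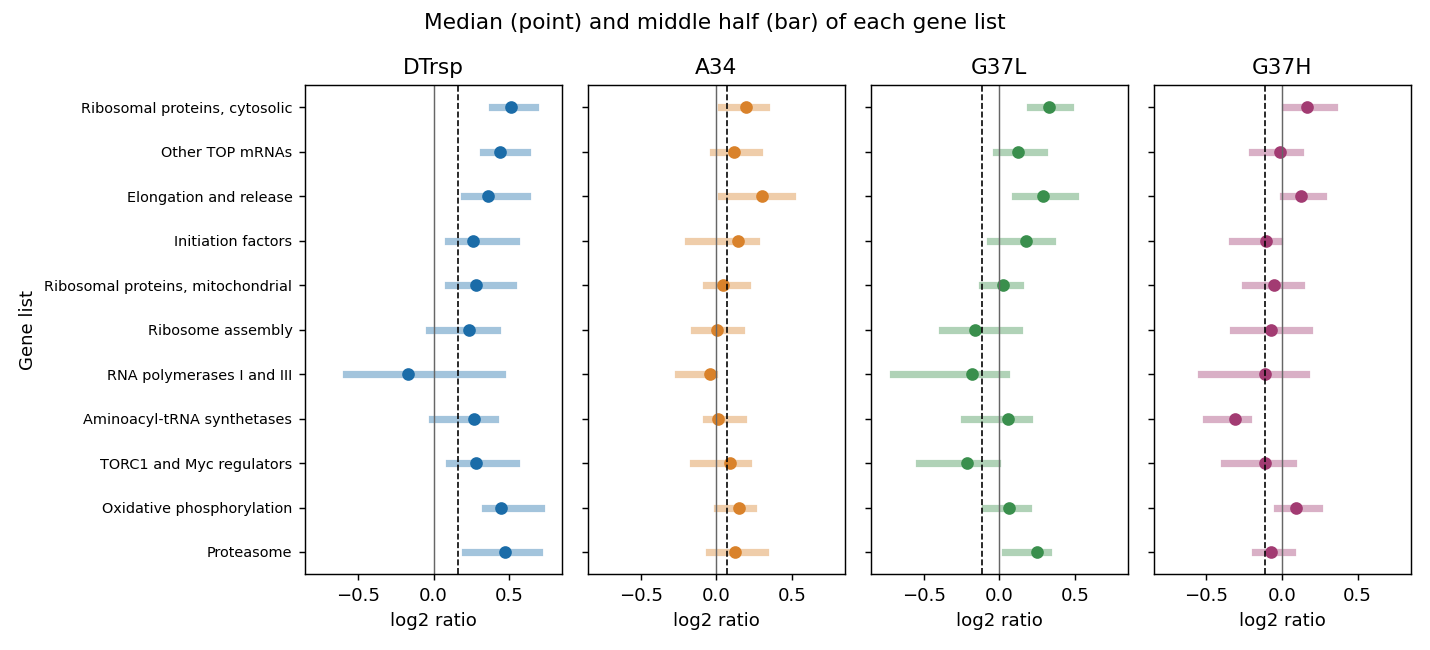
Median log2 ratio (points, horizontal axis) and interquartile range (bars) of each gene list of the translation apparatus and of 2 other complexes (vertical axis), in 4 panels, 1 per line; dashed lines are the median of all genes. Of the lists drawn, the cytosolic ribosomal proteins, at 0.51, 0.20, 0.33 and 0.17, have the highest median in DTrsp, G37L and G37H. Elongation and release factors, at 0.30, have it in A34. Hepatocyte markers, which are not drawn, had higher medians in each line.

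Medians of markers of other liver cells differed between lines. The 11 measured macrophage and Kupffer cell markers had medians of -0.11 in DTrsp, 0.70 in A34, with 0.74 in G37L and 0.58 in G37H. The 4 lymphocyte markers had medians of 0.12, 0.39, -0.77 and -0.27, the 3 neutrophil markers ones of -0.22, -0.17, 0.46 and 0.12, and the 6 endothelial markers ones of 0.64, 0.30, 0.00 and 0.38. Medians of the 6 stellate cell markers were -0.56, 0.09, -0.33 and -0.12, and those of 2 cholangiocyte markers 0.29, 0.45, -0.32 and -0.16. Those of 3 erythroid markers were 1.13, 0.33, 0.27 and 0.18. In DTrsp these 3 were Hbb-b1 at 1.37, Hba-a1 at 1.13 and Alas2 at -0.15. The part of these cells in the ribosomal protein values was not tested. By their decimals, at least 4 of 98 member probes in DTrsp, 2 in A34, with 1 in G37L and 4 in G37H were averages over fewer arrays than labelled. That is 4.08%, 2.04%, 1.02% and 4.08%, against 14.0%, 13.5%, 5.77% and 14.4% of all probes. Some averages over fewer arrays end in decimals that a full average can also give, so these shares are lower bounds.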

How the data were processed

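The deposited table holds log ratios made by the authors, read here as log2, 1 column per line, each an average over the biological replicates per the labels. Per the labels' protocols, Trizol RNA (15 µg) was copied from an oligo-dT primer and coupled to Cy3 or Cy5. Background correction, normalization, dye swaps and log base: not given in the sources used here. Of 15478 probes, 12984 were named through the gene ID and 63 by the annotation's symbol; 110 with several genes and 2321 not listed were unnamed. Probes were averaged per gene with Python 3.11.15 and pandas 2.3.3, giving 9285 genes. A gene was counted where its ratio passed 1.5-fold (0.58 on the log2 scale) or 2-fold. No test was run, since each line has 1 averaged value. The counting was tested on simulated data. Decimals that an average over the labelled number of arrays cannot give marked values resting on fewer arrays. This misses averages over fewer arrays whose decimals a full average can also give.

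Members and lists were chosen with earlier results of these data known. Named genes are the 5 highest and 5 lowest members per line, members past 2-fold, members of the functional groups, paralogue pairs, members with probes far apart, and up to 4 genes of each other list with the largest absolute values. The rule allows any other member to be named as well.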

Additional observations from a re-analysis of the deposited data

Results flagged for a closer look

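Rpl22, the RNA-binding large subunit protein, passed 1.5-fold in opposite directions in 2 lines, at 0.66 in DTrsp and -0.61 in G37H, a difference of 1.28 on the log2 scale. It was read by 1 probe, and the difference was not tested, since each line has 1 averaged value.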

How the results depend on the processing

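Of 195 recomputed values for the 17 main results under 13 alternatives, 137 stayed close to the value reported, 56 moved and 2 reversed. Medians and counts stayed close when probes were summarised by their median or when only genes with 1 probe were used. They also stayed close when only probes whose decimals showed no missing array were used. The same held without the paralogues of restricted expression or, chosen after seeing the data, without Rpl13a. No paired analysis was possible because each line has 1 averaged column and the labels carry no replicate numbers; for the same reason no animal could be left out.

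Centred on the column median, member medians were 0.35 in DTrsp, 0.45 in G37L and 0.28 in G37H. Counts at least 1.5-fold higher were 10, 13 and 6 in these lines, and counts lower were 1 in DTrsp and 2 in G37H. Median differences were 0.26 for DTrsp minus A34, -0.11 for DTrsp minus G37L (reversed), 0.0774 for DTrsp minus G37H and -0.32 for A34 minus G37L. Centred on oxidative phosphorylation genes, chosen after seeing the data, medians were 0.0627, 0.050, 0.27 and 0.0724 in DTrsp, A34, G37L and G37H, with 1 higher and 3 lower in DTrsp and 3 higher and 3 lower in G37L. The same differences were 0.0476, -0.22 (reversed), -0.0030 and -0.22.

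At 2-fold, 1, 0, 0 and 0 genes were higher in DTrsp, A34, G37L and G37H, and 0 lower in G37H. At a log2 threshold of 0.32, 50, 17, 33 and 19 were higher, and 1, 6 and 8 lower in DTrsp, G37L and G37H. Read as natural logarithms, medians were 0.74, 0.28, 0.48 and 0.24, with 41, 9, 21 and 12 genes higher, and 1 and 6 lower in DTrsp and G37L. Differences were then 0.50 for DTrsp minus A34, 0.51 for DTrsp minus G37H and -0.20 for A34 minus G37L. Scaled to the spread of DTrsp, the A34 median was 0.28, with 10 genes higher in A34 and 5 in G37H. With probes counted singly, 2, 1, 2 and 8 were lower in DTrsp, A34, G37L and G37H, and the G37H median was 0.12. The mean over members in G37L was 0.25. For alternatives other than 2-fold and centring on the column median, the share of all genes past the threshold was not computed. The counts under those alternatives therefore have no background beside them and are no result about the members. The reversals follow from subtracting medians that differ between lines; the cause of the other shifts was not tested. The number of arrays and the missing spread between animals limit every value.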
